A study of Homo sapiens with 12 samples.

Results

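In this experiment a low amount of an RNA editor tethered to human PUM2 was set against a nominally higher amount of the same editor without PUM2, and the question was which short RNA elements each of them marked. The series holds 12 libraries from HEK293T, a human embryonic kidney cell line given as wild type. Of these, 6 are compared here: 3 with the fusion hsPUM2-ADARcdMUT at 25 ng and 3 with ADARcdMUT at 1000 ng. ADARcdMUT is a mutated catalytic domain of ADAR, an adenosine deaminase, and the 1000 ng libraries contain no PUM2 fusion. The other 6 libraries carried the same fusion, either not induced or at 250 ng. Doxycycline switched on the fusion, and for ADARcdMUT the means of expression is not stated. All cells carried the same pool of recorder mRNAs, each holding in its 3′ UTR an element of 8 bases next to a recorder hairpin with 7 scored adenosines. The labels do not say what the amounts refer to, and the amount of each protein was not measured in these files. Construct and amount differ together between the groups, so their parts in a difference cannot be told apart. Every 8-base element listed in all 12 libraries was taken, which gave 1005 of the 1022 entries seen in any library.

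PUM2 belongs to the Pumilio family, whose repeated helical units each contact 1 base of single-stranded RNA. These proteins bind the Pumilio response element in the tails of many mRNAs and lower the stability and translation of those mRNAs. ADAR enzymes turn adenosine into inosine, which is read as G after reverse transcription, so an editor held near an RNA leaves A-to-G changes there. The element is written here in DNA letters, 5′ to 3′, with positions counted from 1 at its 5′ end. The consensus keeps TGTA at positions 1 to 4 and ATA at positions 6 to 8, and position 5 is free.

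The elements on which the results turn are shown first. The 4 consensus forms are printed with the free base in capitals:

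consensus with T: tgtaTata
consensus with C: tgtaCata
consensus with A: tgtaAata
consensus with G: tgtaGata

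The next elements carried the largest increases outside the consensus, and their capitals mark bases that differ from the consensus:

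T7G and A8G: tgtacaGG
T7G on the T form: tgtataGa
A8T on the T form: tgtatatT
T7G and A8T: tgtacaGT
T7G on the C form: tgtacaGa
A8T on the A form: tgtaaatT
A8T on the C form: tgtacatT

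Elements with the largest decreases included a few related to the consensus, with changed bases in capitals. A few others, printed without capitals, each differ at a base from the consensus in reverse letter order, so none is its exact reversal:

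T3G: tgGatata
T3G and A4G: tgGGtata
T3G and T7A: tgGataAa
T1C and T3G: CgGatata
reverse order, element A: atatgtgt
reverse order, element B: attgatgt
reverse order, element C: atcaatgt

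Nearly all elements were read deeply, although replicates differed by more than counting. Total reads ran from 11235321 to 23003929 per library, and 8-base elements took 97.1 to 97.3% of them. The median element had 10218 to 21818 reads per library and the least covered one had 1091. Reads carry no molecular identifiers that the labels mention, so counting errors cover counting only. The typical SD between replicates of an element's log2 odds of editing was 0.0529 with the fusion and 0.107 with ADARcdMUT. The counting part of it was 0.0224 and 0.0373, so replicate spread was used throughout. That counting part treats the adenosines of a read as independent and is too low where edits cluster on reads. Between replicate libraries, chi-squared of the read counts was 24.2 to 201 per degree of freedom, so none was a copy of another. The p-values measure the spread between libraries that the labels call replicates. For each element, limma estimated this spread over all groups of the 12 libraries together. The larger spread with ADARcdMUT was thus averaged with that of the other groups.

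The tethered editor at 25 ng edited the whole set of elements more than the untethered one at 1000 ng. The median element had 4.26, 4.57 and 4.20% of its recorder adenosines edited in the 3 fusion libraries. It had 2.06, 1.96 and 1.82% in the 3 ADARcdMUT libraries. Every fusion library lay above every ADARcdMUT library, and the means were 4.35% ± 0.194 and 1.95% ± 0.120 (SD, n = 3), a ratio of 2.23. The 3 libraries of the fusion without induction, the background of the assay, had medians of 1.73 to 1.93% (1.82% ± 0.0991), which overlapped those of ADARcdMUT. In the limma fit of single elements, 1005 of 1005 rose with the fusion at an adjusted p under 0.05 (100%), with log2 changes in the odds of editing between 0.79 and 2.27.

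Both parts of the editing level were higher with the fusion. A median of 13.9, 13.9 and 13.7% of an element's reads carried an edit with the fusion, against 7.54, 7.12 and 6.87% with ADARcdMUT. An edited read carried 2.15, 2.31 and 2.15 edits with the fusion, against 1.89, 1.92 and 1.86. The ratio of the means was therefore 1.93 for the share of edited reads and 1.16 for the edits per edited read. In the limma fit of edits per edited read, 965 of 1005 elements rose at an adjusted p under 0.05 (96%). The exact two-sided permutation test gave p = 0.1 for each of these 3 library medians, the smallest that 3 against 3 libraries allow, and 0.117 after adjustment over 7 library-level tests.

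Edits clustered on reads in both groups. If the 7 adenosines were edited independently at equal rates, the pooled editing levels would put an edit on 26.7, 28.2 and 26.3% of reads with the fusion and on 13.5, 13.0 and 12.1% with ADARcdMUT. Unequal rates would raise these figures further. The observed shares were 14.0, 13.9 and 13.8%, and 7.60, 7.17 and 6.92%. In all 6 libraries fewer reads were edited, with more edits each, than independent editing gives.

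The shift common to all elements was removed next, by subtracting each library's median log2 odds, so that a relative change measures site selectivity. On this scale 76 of 1005 elements rose (7.56%) and 25 fell (2.49%) in limma at an adjusted p under 0.05. For each of these 101 elements, the 3 libraries of one group lay outside the range of the other. Over all elements, that held for 142 in the upward direction (14.1%) and 119 in the downward one (11.8%). Of the 76 that rose, 4 were the consensus forms and 53 were further elements with TGTA. Another 7 contained TGT but not TGTA, among them ctatatgt, which ends in TGT, and 12 contained no TGT. Centring on the library mean instead gave 73 higher and 47 lower elements, so that higher calls made up 60.8% of calls in place of 75.2%. The count of lower elements was sensitive to single libraries: leaving out fusion replicate 1, 2 or 3 gave 15, 9 and 12. Leaving out ADARcdMUT replicate 1, 2 or 3 gave 39, 43 and 36, and a fit of only the 6 libraries gave 5.

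Of the consensus forms, those with T, C and A stood highest with the fusion, and the G form stood somewhat lower. The T form had 7.53, 7.71 and 6.61% of adenosines edited with the fusion and 1.37, 1.69 and 1.75% with ADARcdMUT. Its relative change was 1.08 log2 units (SE 0.12, limma adjusted p = 2.72e-05). The C form had 7.25, 8.39 and 7.01% against 1.93, 1.51 and 1.64%. Its relative change was 1.05 (SE 0.08, limma adjusted p = 4.78e-07), with no overlap between groups. The A form had 7.22, 7.997 and 6.69% against 1.82, 2.10 and 1.66%, a relative change of 0.86 (SE 0.10, limma adjusted p = 2.44e-05). The G form was the least edited of the 4 with the fusion in all 3 libraries, at 6.09, 6.30 and 5.92%. With ADARcdMUT it had 2.06, 1.93 and 1.84%, and its relative change was 0.52 (SE 0.06, limma adjusted p = 2.83e-05).

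Ranked among the 1005 elements, the T, C and A forms took the first 3 places in all 3 fusion libraries, and the G form took places 6, 11 and 8. With ADARcdMUT the 4 forms took places 241 to 999. As a class, the consensus was edited at 7.24% ± 0.603 with the fusion and at 1.80% ± 0.0878 with ADARcdMUT, a ratio of 4.03. The share of each library's reads that a consensus form took overlapped between the groups for all 4 forms.

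The preference of each editor for the consensus was measured within each library as the median log2 odds of the 4 forms minus that of the 652 elements without TGT. It was 0.82, 0.86 and 0.72 with the fusion, which corresponds to odds of editing 1.77, 1.82 and 1.64 times as high. It was -0.14, -0.11 and -0.09 with ADARcdMUT, odds ratios of 0.908, 0.926 and 0.938. The consensus thus lay slightly below the elements without TGT in each ADARcdMUT library. In the non-induced libraries the value was 0.06, -0.16 and 0.06, a range that includes all 3 ADARcdMUT values. The difference of 0.91 was far larger than the spread between replicates (SD 0.0752 and 0.0235, n = 3), and the exact permutation test gave p = 0.1 (adjusted 0.117).

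**Figure D1:**
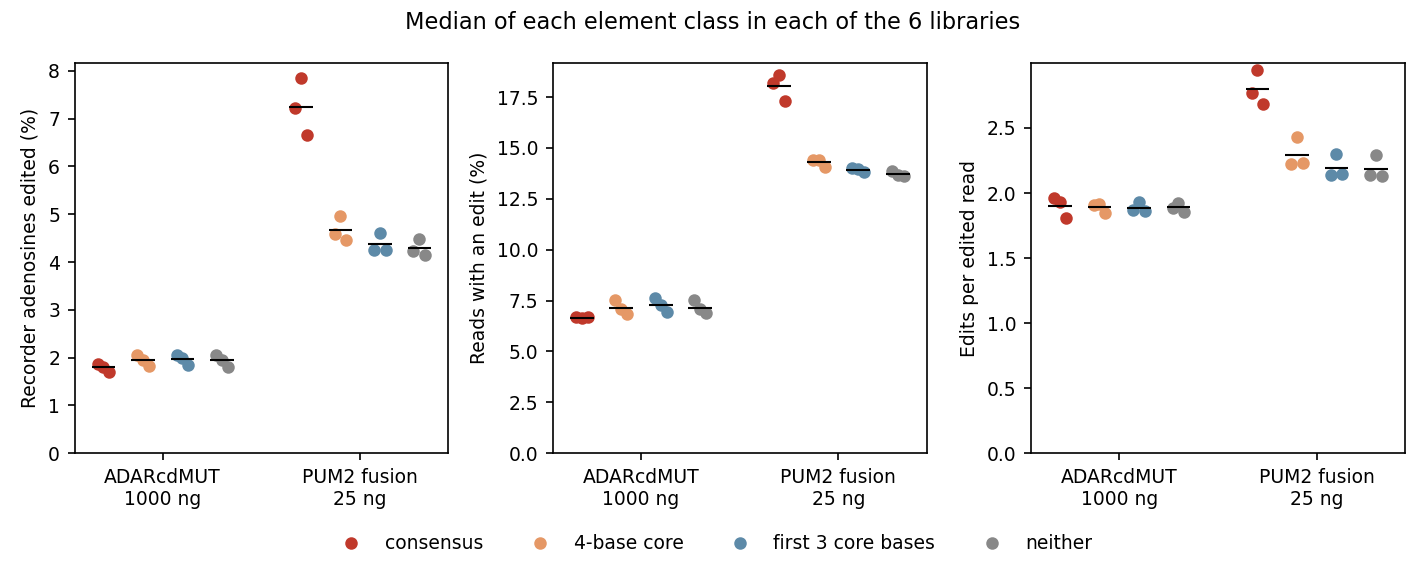
Median over elements of the percent of recorder adenosines edited (left), the percent of reads with an edit (centre) and the edits per edited read (right), for each of the 6 libraries (points) with the mean of 3 libraries as a bar. Colours separate the consensus (4 elements), elements with the 4-base core TGTA (181), with its first 3 bases TGT only (168) and with neither (652); the consensus reaches 7.24% edited with the 25 ng fusion and 1.80% with ADARcdMUT at 1000 ng.

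Selectivity appeared in both how often a read was edited and how heavily. The T form had 19.0, 19.3 and 17.0% of its reads edited with the fusion, against 5.27, 6.82 and 7.02%. Its edited reads carried 2.78, 2.80 and 2.71 edits, against 1.82, 1.74 and 1.75. A 4.56-fold higher editing level was thus a 2.91-fold higher share of edited reads times 1.56-fold more edits on each, and the edits per edited read carried 29.5% of the log2 fold. That share was 29.6% for the C form, 27.6% for the A form and 21.9% for the G form, against a median of 18.4% over the elements without TGT. Relative to the library median, edits per edited read rose for the T form by 0.43 (limma adjusted p = 4.69e-06), the C form by 0.42 and the A form by 0.33. The G form's change of 0.14 did not pass the test (limma adjusted p = 0.0547).

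Over all elements, the share of reads edited relative to the library median rose for 59 (5.87%) and fell for 26 (2.59%). The edits per edited read, on the same relative scale, rose for 31 (3.08%) and fell for 3 (0.299%). The 3 that fell were atacattt by 0.21, tAtaaCta by 0.18 and gtacatgt by 0.16 (limma adjusted p = 0.0212, 0.0385 and 0.0469). Of the 31, 20 were also among the 59 called by the share of reads, which is 64.5% of the shorter list and 33.9% of the longer. For elements called lower in editing, 15 of 25 were also lower in the share of reads edited. With a fusion library left out, calls of edits per edited read fell to 15, 13 and 16 higher (without replicate 1, 2 and 3), and calls of the share of reads to 33, 38 and 40 higher and 12, 8 and 9 lower. Lower calls of edits per edited read went to 0 in limma in each of these fits (45, 33 and 37 at an unadjusted p under 0.05). Without ADARcdMUT replicate 1, 2 or 3, 10, 11 and 11 elements fell in edits per edited read, and without replicate 3, 55 rose. A fit of only the 6 libraries gave 29 higher and 2 lower for the share of reads, and 7 higher and 0 lower for edits per edited read (93 and 30 at an unadjusted p under 0.05).

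**Figure D2:**
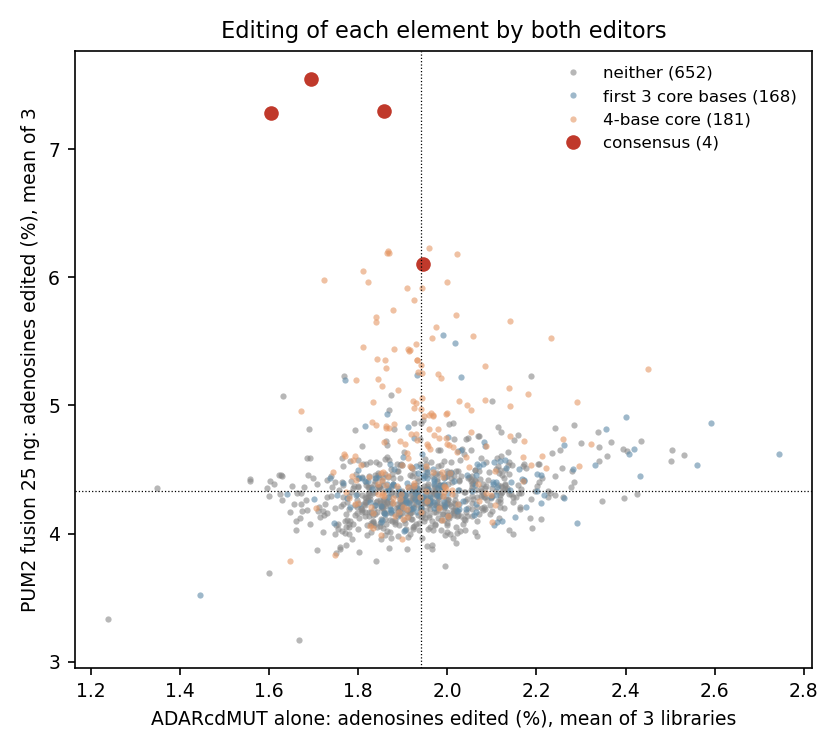
Percent of recorder adenosines edited for each of the 1005 elements with ADARcdMUT alone (horizontal axis) and with the 25 ng fusion (vertical axis), as means of 3 libraries; neither axis starts at 0, and dotted lines mark the medians over elements. The consensus forms (large points) and many elements with the 4-base core (orange) lie above the cloud at ordinary ADARcdMUT levels, while elements to the far right, high with ADARcdMUT, stay near the fusion's median.

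Next to the consensus came elements that kept TGTA and differed at the 3′ end. tgtacaGG, with both of its last bases changed, had 5.93, 6.06 and 5.94% edited with the fusion and 1.69, 1.79 and 1.70% with ADARcdMUT. Its relative change of 0.66 (SE 0.06, limma adjusted p = 7.29e-06) was the highest outside the consensus and exceeded that of the consensus G form, a difference that was not tested. tgtatatT had 6.45, 6.09 and 6.06% against 2.13, 1.76 and 1.71%, with a relative change of 0.61 (SE 0.09, limma adjusted p = 0.000326). tgtataGa had 6.01, 6.45 and 5.69% against 1.82, 2.01 and 1.61%, with a relative change of 0.61 (SE 0.07). The other 4 elements of this group, tgtacaGT, tgtacaGa, tgtaaatT and tgtacatT, had relative changes of 0.60, 0.60, 0.58 and 0.55, all called. Over these 7 elements the lowest fusion library had 5.69% and the highest ADARcdMUT library 2.34%.

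The 181 elements with TGTA outside the consensus were edited at 4.68% ± 0.261 with the fusion and 1.94% ± 0.121 with ADARcdMUT. Of them 53 rose (29.3%, against 7.56% of all elements), and their median relative change was 0.11. The same median was -0.01 over the 168 elements with TGT but not TGTA, of which 7 rose (4.17%) and 10 fell (5.95%, against 2.49% of all elements). It was also -0.01 over the 652 elements without TGT, of which 12 rose (1.84%) and 15 fell (2.30%). As pooled classes, elements with the 4-base core therefore had a positive median change, and those with its first 3 bases only did not. The latter class takes TGT at any place in the element. Elements changed from the consensus only at position 4 had a median of 0.26, as given below.

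The elements that differ from the consensus at 1 fixed position, 12 at each of 7 positions, showed where a change cost most. With position 1 changed, 0 of 12 passed the limma test (4 higher at an unadjusted p under 0.05, 0 by the quasi-binomial model), and the median relative change was 0.08. With position 2 changed, 1 rose and the median was 0.13. With position 3 changed, 1 rose, 1 fell and the median was 0.09. With position 4 changed, 7 rose and the median was 0.26. With position 6, 7 or 8 changed, 6, 6 and 10 rose, and the medians were 0.19, 0.21 and 0.35. Against a median of 0.96 for the consensus, each group of single changes lost most of the relative increase, and the first 3 positions lost the most.

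Which base replaced the original also mattered. A8T kept most: its 4 elements were edited at 5.99% ± 0.0801 with the fusion and 1.89% ± 0.208 with ADARcdMUT, and 4 of 4 rose. The gain over ADARcdMUT, in points beyond the median gain of all elements (2.38 points), was 56.0% of that of the consensus form with the same free base. T7A kept 41.6% and T7G 40.7%, while T7C at the same position kept 12.1%. All 4 T7A elements rose and so did 2 T7G elements, whereas 0 of 4 T7C elements passed limma's test (1 higher and 1 lower at an unadjusted p under 0.05, 0 by the quasi-binomial model). At position 6, A6G kept 34.2%, A6C 22.4% and A6T 20.7%. At position 4 the 3 substitutions kept 20.4 to 26.6%.

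Among the first 3 positions, G2A stood apart from the other substitutions, which kept 14.9% or less. G2A kept 26.4%, with 5.14% ± 0.173 edited with the fusion against 1.91% ± 0.307. Its C form, tAtacata, had 5.23, 5.47 and 4.98% edited with the fusion and 1.72, 1.99 and 1.59% with ADARcdMUT. It rose by 0.42 (SE 0.07, limma adjusted p = 0.000836). The other 3 G2A elements did not pass the test. T3G kept 0.666%, the least of the 21 substitutions. Its T form tgGatata had 4.73, 4.40 and 4.71% with the fusion and 2.996, 2.30 and 2.29% with ADARcdMUT, and its relative change was -0.29 (SE 0.08, limma adjusted p = 0.03). That call was lost in 7 of the 15 alternative settings that tested it.

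**Figure D3:**
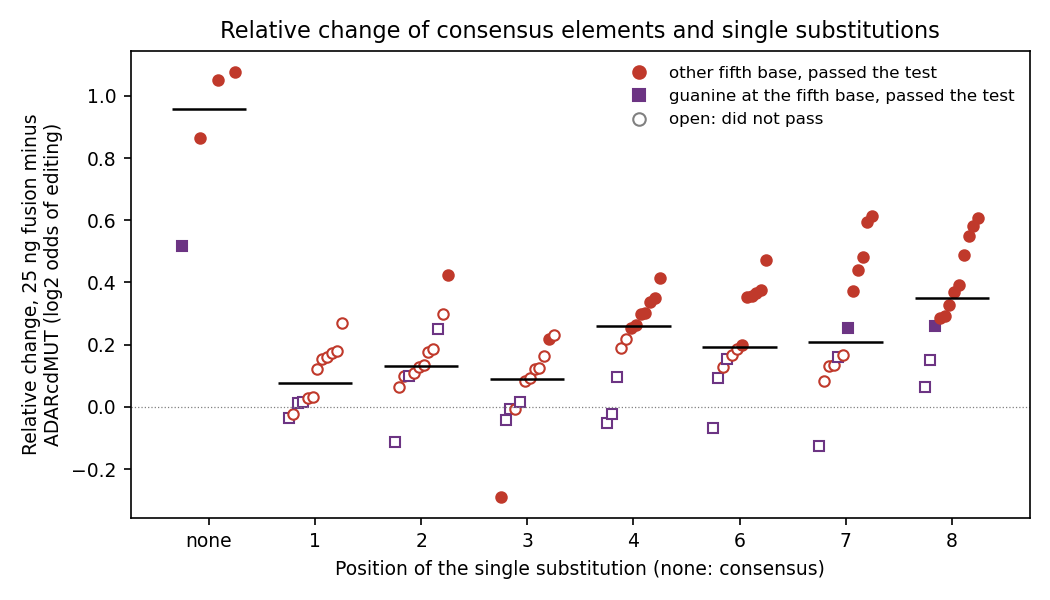
Relative change of each single substitution (1 point per element) by its position, with the 4 consensus forms at the left; the vertical axis is the log2 odds of editing relative to the library median, 25 ng fusion minus ADARcdMUT, and bars are medians. Filled points passed the test and squares carry guanine at the free base, position 5; medians run from 0.08 at position 1 to 0.35 at position 8, below the 0.96 of the consensus.

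The free base at position 5 mattered although the consensus does not fix it. Over the 21 single substitutions in each form, the median relative change was 0.19 with A, 0.25 with C, 0.20 with T and 0.02 with G. The number that rose was 8, 11, 10 and 2 of 21. For 15 of the 21 substitutions the G form was the lowest of the 4 forms, and for 0 it was the highest. Among double substitutions, 189 for each free base, 5 rose with A (2.65%), 11 with C (5.82%) and 19 with T (10.1%), against 7.56% of all elements. With G, 0 rose in limma (2 at an unadjusted p under 0.05, 0 by the quasi-binomial model). The T count includes 10 elements, described below, whose later start of TGTA itself places T at position 5. The consensus G form was likewise the lowest of its 4.

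Single-position extremes show the spread behind these medians. At position 6, tgtaaTta had 5.70, 6.19 and 5.35% with the fusion against 1.97, 1.88 and 1.79%, and rose by 0.47. tgtagCta, also changed at position 6, had 4.42, 4.69 and 4.35% against 2.30, 2.10 and 1.92%, with a change of -0.07 that did not pass the test. At position 4, tgtGaata had 5.36, 5.53 and 4.72% against 1.99, 1.79 and 1.53%, and rose by 0.41. tgtGgata, the same substitution with G at position 5, had 4.42, 4.89 and 4.39% against 2.17, 2.08 and 2.10%, with a change of -0.05 that did not pass. At positions 1, 2, 4, 6, 7 and 8 the lowest element carried G at position 5, and at position 3 it carried T there.

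Of the 756 double substitutions, 35 rose (4.63%, against 7.56% of all elements) and 17 fell (2.25%, against 2.49%). Their median relative change was -0.01. The 36 elements with positions 7 and 8 both changed were the exception. They were edited at 4.79% ± 0.311 with the fusion and 1.89% ± 0.165 with ADARcdMUT, and 15 rose (41.7%), with a median of 0.19. The medians of the other 20 position pairs lay between -0.05 and 0.03, with 0 to 3 elements called higher in each. Within the 7 and 8 pair, 7 of 12 elements with T7G rose, against 4 of 12 with T7A and 4 of 12 with T7C. By the last base, 8 of 12 rose with A8T, 4 with A8C and 3 with A8G. T7G elements of this pair were edited at 5.39% ± 0.25 with the fusion, and T7C elements at 4.53% ± 0.287. Of all 35 double substitutions that rose, 17 had both changes at positions 6 to 8.

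**Figure D4:**
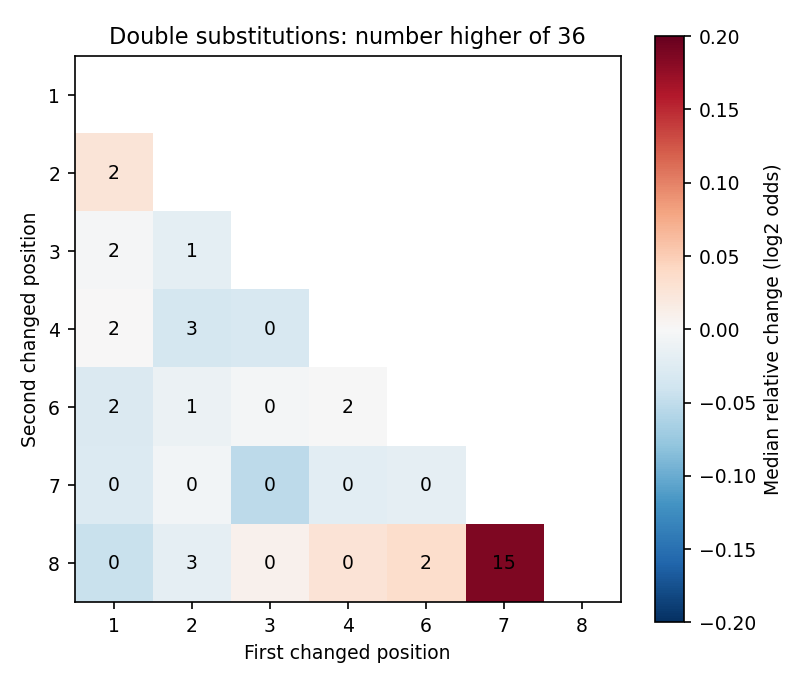
Double substitutions by their pair of changed positions (axes), 36 elements per cell; colour gives the median relative change in log2 odds of editing, 25 ng fusion minus ADARcdMUT, and the printed number counts elements called higher. The cell for positions 7 and 8 holds 15 of 36, and no other cell more than 3.

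Among the remaining 18 double substitutions that rose, 10 held TGTA at a later start. This grouping was formed after the values were seen and is a description. With TGTA starting at position 3, 6 of 13 elements rose, among them tCtGtata (5.65% ± 0.390 with the fusion, 1.84% ± 0.262 with ADARcdMUT, relative change 0.49) and tTtGtata (0.36). All 6 ended in TGTATA. They were among 10 elements with this start that kept the last A, whose changes ran from -0.02 to 0.49, and the 3 that changed it had changes of -0.03 to 0.16. One of the 6, tgtGtata, is also the A4G form with T at position 5, so the A4G group above includes an element with a shifted core. With TGTA starting at position 5, 5 of 12 rose, led by GgtatGta (5.44% ± 0.465 against 1.88% ± 0.115, change 0.39). With TGTA at position 2, 2 of 3 rose: atgtatag by 0.48 and atgtacat by 0.45. The bases next to the element in the recorder were not analysed here, so how far such a shifted core continues into the flank is not known.

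Outside TGTA, 19 of 820 elements rose (2.32%), and they differed in which group's level lay further from its median. Among the 57 elements with TGTA that rose, all 57 lay above the library median in each of the 3 fusion libraries, and the median relative level was 0.34 with the fusion and -0.04 with ADARcdMUT. Among the 19 without it, 14 lay above the median in each fusion library and 14 lay below it in each ADARcdMUT library, with median levels of 0.15 and -0.21. For 11 of those 19 the low ADARcdMUT level made up the larger part of the change. These counts come from the libraries that selected the elements, so they only describe the calls. In the 250 ng libraries against the non-induced ones, which are other libraries, the 19 had a median change of 0.24. Of them 18 were above 0 and 14 (73.7%) had all 3 libraries higher, against 12.9% of the 776 elements without TGTA that were not called. ttcaccta, with the highest adjusted p of the 19, had 4.34, 5.09 and 3.63% with the fusion, near the median, and 1.40, 1.10 and 1.55% with ADARcdMUT. Its change of 0.54 (SE 0.16, limma adjusted p = 0.0444) rested on as few as 1204 reads in a library, and the call was lost in 10 of the 15 alternative settings that tested it.

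The 25 elements that fell mostly lay above the median element in the ADARcdMUT libraries, whose medians overlapped the non-induced background. In 22 of them all 3 ADARcdMUT libraries lay above their median, and the median relative level was 0.21 with ADARcdMUT and -0.02 with the fusion. For 3 of the 25 the fusion's level made up the larger part. The 25 were selected on the difference between the groups in these same libraries, and ADARcdMUT levels spread more between replicates. A selected decrease therefore tends to hold a high ADARcdMUT level, and these counts only describe the calls. atatgtgt had 3.24, 2.67 and 2.32% with ADARcdMUT, places 2, 7 and 10 of 1005. With the fusion it had 4.44, 4.83 and 4.596%, places 264, 244 and 119. Its relative change was -0.40 (SE 0.09, limma adjusted p = 0.00714). attgatgt, like atatgtgt a base away from the reversed consensus, had 2.84, 2.32 and 2.52% with ADARcdMUT against 4.59, 4.65 and 4.36% with the fusion. Its change was -0.34 (SE 0.07). Even these elements were edited more with the fusion than with ADARcdMUT in absolute terms, by 1.68-fold for atatgtgt and 1.77-fold for attgatgt.

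Of the 10 largest decreases, tgGGtata, CgGatata, tgGataAa and tgGatata carry T3G. Of all 76 elements with T3G alone or with 1 more change, 6 fell (7.89%, against 2.49% of all elements) and 1 rose (1.32%, against 7.56%), namely AgGacata by 0.25. Their median change was -0.05. This set was formed from the list of largest decreases, and the 6 include those 4 elements, so the shares are a description. The relative changes of the 4 named elements were -0.33, -0.32, -0.30 and -0.29, and with ADARcdMUT they had means of 2.43, 2.40, 2.50 and 2.53%. In the same order, the calls of these 4 were lost in 2, 5, 1 and 7 of the alternative settings that tested them. Elements ending in TGT numbered 55, of which 1 rose (7.56% of all elements rose) and 5 fell (2.49% of all fell), with a median of -0.05 and 2.01% ± 0.134 edited with ADARcdMUT. The 4 forms of the consensus in full reverse order had a median change of -0.03, at 4.40% ± 0.212 with the fusion, and 0 passed limma's test (0 at an unadjusted p under 0.05, 0 by the quasi-binomial model). By the number of A and T bases, the median change lay between -0.02 and 0.06.

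At the lower end, some elements were among the least edited in both groups. The ADARcdMUT medians overlapped those of the non-induced fusion, so low levels with ADARcdMUT cannot be told apart here from levels of the background. CgtGcata had 3.28, 3.34 and 3.37% with the fusion and 1.198, 1.21 and 1.31% with ADARcdMUT. It took place 1003 or 1004 of 1005 in all 6 libraries, and its relative change of 0.26 did not pass the test. tgtGcCta had 3.45, 3.72 and 3.38% against 1.54, 1.505 and 1.30%, and took places between 983 and 1005.

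The spread over elements did not separate the editors. The SD over elements of the log2 odds was 0.126, 0.154 and 0.124 with the fusion and 0.189, 0.165 and 0.135 with ADARcdMUT. The groups overlapped (exact permutation p = 0.2, adjusted 0.2). Without the elements that hold TGTA, the SD was 0.0824, 0.116 and 0.0879 with the fusion and 0.195, 0.171 and 0.137 with ADARcdMUT. Across the 1005 elements, log2 odds of 2 fusion libraries correlated at Pearson's r of 0.714 to 0.818, and those of 2 ADARcdMUT libraries at 0.226 to 0.291. The means of the groups correlated at 0.137. Over the 820 elements without TGTA, these correlations were 0.449 to 0.587, 0.238 to 0.309 and 0.295. Elements are not independent replicates, so these correlations describe the libraries. Libraries with fewer edits have more counting error. With ADARcdMUT the counting SD averaged 0.0398, and the SD over elements was 0.163. This counting SD treats the adenosines of a read as independent, and edits clustered on reads, so it understates the counting error. What lowered the ADARcdMUT correlations was not tested.

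Libraries outside the comparison gave the same direction for most called elements. In the 250 ng fusion libraries against the non-induced ones, whose levels do not enter the differences above, the 76 elements that rose had a median relative change of 0.36. Of them 75 were above 0, and for 70 (92.1%) all 3 libraries at 250 ng lay above all 3 non-induced ones, against 219 of all 1005 elements (21.8%). The 25 elements that fell had a median of -0.13 there, 23 were below 0 and 15 (60%) had all 3 libraries lower, against 179 of 1005 (17.8%). These libraries did enter the fit's estimate of the spread, and so the choice of elements called. Of the 53 elements called higher by a fit of only the 6 compared libraries, 53 were above 0 there and 52 (98.1%) had all 3 libraries higher, and of the 5 called lower, 5 were below 0 and 3 (60%) had all 3 lower. Among the exceptions in the list of 25 was tAtaaTta, which fell here by 0.21 and changed by 0.21 upwards at 250 ng.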

How the data were processed

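Amplicons of the recorder mRNA's tail region were sequenced, per the labels' protocols, from HEK293T cells (the extraction text names another organism's embryos). How reads were aligned and edits called is not stated there. The authors deposited, per element and library, counts of reads, of edited reads and of edits, and also the percent of adenosines edited, the element's percent of the library and an editing score. The deposited percent and score were recomputed from the counts within 1e-09 in all 12 libraries, and 7 adenosines per read follow from this. The tables list entries with over 1000 reads, so 16 of 1022 entries were not in all 12 libraries and were left out. The entry EMPTY was kept outside the fit.

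The tested value was log2((edits + 0.5)/(7 × reads − edits + 0.5)), in limma 3.58.1 (R 4.3.3; lmFit, eBayes with trend) over all 12 libraries, with Benjamini-Hochberg adjustment over 1005 elements. Relative values subtract each library's median. Log2 edits per edited read were fitted likewise. Library-level values had two-sided exact permutation tests, adjusted over 7 tests. Alternatives were other library subsets, a replicate block, pseudocounts, scales, centrings, a read minimum and a quasi-binomial model. Scripts were tested on simulated data. Python 3.11.15 with numpy 2.4.6, pandas 2.3.3 and scipy 1.17.1 served for the rest. The members, lists and tests were chosen with earlier results of these data known. Named elements are the consensus forms, the 10 largest called changes each way with groups that do not overlap, the extremes of each position, the 3 largest changes each way in edits per edited read, and the 3 highest and lowest levels with ADARcdMUT. Shifted cores, the T3G set and elements called higher without TGTA were named after their values were seen.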

Additional observations from a re-analysis of the deposited data

Results flagged for a closer look

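The entry named EMPTY, which is not an 8-base element and took no part in the comparisons, carried edits above the level with ADARcdMUT. It had 4.29% ± 0.156 of its recorder adenosines edited with the 25 ng fusion (4.19 to 4.47%, n = 3) and 2.12% ± 0.109 with ADARcdMUT (1.99 to 2.19%). Its edited reads made up 13.9% and 7.72%, with 2.16 and 1.92 edits each. Added to the limma fit, its relative change was -0.14 (SE 0.05, adjusted p = 0.0682). The labels do not say what the entry holds.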

How the results depend on the processing

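All 4 consensus forms stayed called higher under the alternatives tried, except with a minimum of 5000 reads, where the T form (4534 reads in 1 library) was left out. Of 25 named elements called in the comparison, 17 kept their call in all 16 alternatives, the T form kept it in the 15 that tested it, 7 lost it in at least 1 and 0 reversed. Those that lost it were tgGGtata, CgGatata, tgGataAa, tgGatata, atacacgt, CgtaaatC and ttcaccta, all of them decreases except ttcaccta. Counts of relative calls moved with the libraries in the fit and with the scale. With only the 6 libraries compared, 53 elements rose, all among the 76, and 5 fell. The share of reads edited then gave 29 higher and 2 lower, and edits per edited read gave 7 higher and 0 lower in limma (93 and 30 at an unadjusted p under 0.05). Percent points gave 109 higher and 28 lower, of which 71 and 13 were shared, and the arcsine scale 99 and 28, of which 74 and 18 were shared. Centring on the mean gave 47 lower. The quasi-binomial model gave 73 higher and 25 lower, of which 67 and 18 were shared.

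With each library left out in turn, calls ranged from 54 to 96 higher and 9 to 43 lower for editing, 33 to 61 and 8 to 39 for the share of reads, and 13 to 55 and 0 to 11 for edits per edited read (33 lower at the least at an unadjusted p under 0.05). The difference in median editing ranged from 2.29 to 2.47 points and in consensus preference from 0.88 to 0.95. Replicate numbers did not pair the libraries: deviations of same-numbered libraries correlated at 0.0736, 0.0283 and 0.0198. With the number as a block, 73 elements rose and 24 fell for editing, 50 and 18 for the share of reads, 29 and 2 for edits per edited read. Paired differences in median editing (2.40) and consensus preference (0.91) had an exact sign-flip p of 0.25, the smallest 3 pairs allow.

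Editing was lower with ADARcdMUT and its replicate spread was larger, so its element levels are less certain. The limma fit shared the spread over all groups. For 22 of the 25 lower calls the ADARcdMUT level made up the larger part, and these calls carry that limit most.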
